A study of Solanum lycopersicum with 24 samples.

Results

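Gene expression in tomato glandular cells was compared between the second and the first of 2 May collections, numbered 4 and 3 among the 4 collections of the study. Library names carry dates in May, a week apart, and the labels give the sampling time as a number alone. Each collection held 1 library of each of 3 genotypes: the af mutant, the complemented line #4, written CHI4 here, and the complemented line #9, written CHI9. The comparison therefore rests on 6 of the 12 libraries, 3 of collection 4 and 3 of collection 3, paired by genotype. Plants of all groups were raised in pots of soil at 28 °C and 250 µE for 5 weeks, and RNA was taken from glandular cells of the type VI trichomes on their leaves. The labels do not say what af stands for. From general knowledge, it is the anthocyanin free mutant of the chalcone isomerase gene CHI1, and the lines carry a working copy again. Neither the promoter that drives this copy nor the number of plants behind a library is stated in the labels. Each library was sequenced on 2 lanes and lane 2 alone was used. Over chromosomes 1 to 12, medians of the log2 difference spanned -0.29 (chromosome 1) to 0.33 (chromosome 11) in the af pair on lane 1, and 0.10 to 0.16 on lane 2. In the CHI4 pair they spanned -0.242 (chromosome 1) to 0.074 (chromosome 10) on lane 1, and -0.012 to 0.042 on lane 2. The CHI9 pair spanned 0.062 to 0.132 on lane 1 and 0.041 to 0.155 on lane 2.

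Type VI trichomes are small leaf glands that make terpenes and flavonols for storage and defence. Their cells also run the programmes common to leaf cells. Heat shock proteins are chaperones that hold or refold unstable proteins, and their transcripts respond within a short time to heat and other stress. The circadian clock is a loop of morning, day and evening regulators whose transcripts swing through each day. Phenylalanine ammonia-lyase (PAL) opens the phenylpropanoid pathway, which feeds flavonoid synthesis, while terpenes are built from isoprene units of the plastid MEP pathway or the cytosolic mevalonate pathway. Gene names below were assigned to locus numbers from general knowledge. The files do not pair loci with names, and the names were not checked against an annotation.

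The libraries of collection 4 held 6.47 M gene counts in af, 23.3 M in CHI4 and 22.9 M in CHI9. Those of collection 3 held 19.6 M in af, 25.8 M in CHI4 and 18.7 M in CHI9. The af library of collection 4 was the shallowest, and 3 counts in it stand for 0.464 counts per M (CPM), for counting error only. Reads in no gene were fewer in collection 4 in every genotype, at 8.48% to 9.77%, against 9.77% to 11.6% in collection 3. CHI1 had 228, 981 and 770 CPM in the af, CHI4 and CHI9 libraries of collection 4, against 326, 704 and 695 CPM in those of collection 3. The af library was the lowest of each collection, and CHI1 did not pass the test between collections (log2 difference 0.04, SE 0.17, edgeR adjusted p = 0.944). Summed over 6 markers, gland cell transcripts took 11220, 30080 and 28050 CPM in collection 4 and 12520, 27770 and 30850 CPM in collection 3, with 0 of 6 called. Of the markers of other cells, 0 of 10 tested green leaf loci, 0 of 2 loci of other trichome types and 0 of 3 pavement cell loci were called. Green leaf transcripts nonetheless summed higher in collection 4 in every pair, at 737, 1532 and 1390 CPM against 570, 1371 and 1299 CPM in collection 3. The locus Solyc02g070940 alone had 113, 442 and 398 CPM against 82.5, 326 and 307 CPM. Not every locus moved this way. The Rubisco small subunit RBCS1 had 92.3 CPM against 109 CPM in CHI9, and RBCS3 was lower in both lines. The part of green leaf transcripts in the results was not tested. Of the 16 green leaf loci, Solyc02g071030 was at 0 in all 6 libraries. The 4 loci of other trichome types summed to 8.75 to 63.4 CPM in collection 4 and 20.4 to 58.6 CPM in collection 3, and the 3 pavement loci to 43.6 to 138 CPM in collection 4 and 47.2 to 97.7 CPM in collection 3.

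Between the collections, 382 of 16639 tested genes (2.30%) were called higher in collection 4 and 334 (2.01%) were called lower. The test was edgeR's quasi-likelihood test with genotype as a block, at a Benjamini-Hochberg adjusted p under 0.05 over all tested genes. Differences are fitted log2 values, collection 4 minus collection 3. At least a 2-fold difference was fitted for 143 of the higher and 98 of the lower genes. All 3 pairs moved the called way for 380 of the higher and 332 of the lower genes, and 39% of all tested genes had 3 pairs in a shared direction. The collections did not overlap for 191 of the 382 and 146 of the 334 called genes. Genes that were not called, such as FLS and MYC1, could also show no overlap, so nothing is read from these counts. Without TMM scaling the calls split into 488 higher and 198 lower, so that 71.1% of calls were higher, against 53.4% with it. With the genotype block left out, edgeR called 0 genes, with 873 at an unadjusted p under 0.05 against 2837 with the block, while DESeq2 called 24 higher and 19 lower and limma-voom called 0. With the block, the p-values rest on how far the 3 pair differences disagree, with 2 residual degrees of freedom, moderated across genes. Without it they rest on the spread between libraries. With 1 library per genotype and collection, the collection cannot be told apart from anything else its libraries shared, preparation included, and fewer cells of a type cannot be told apart from less RNA per cell.

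**Figure D1:**
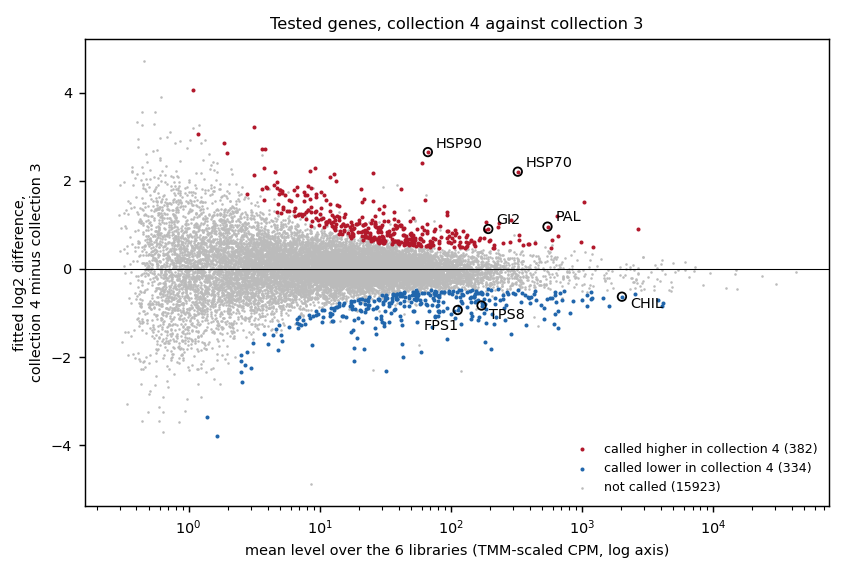
Fitted log2 difference (collection 4 minus collection 3, vertical axis) of the 16639 tested genes against mean level in the 6 libraries (TMM-scaled CPM, log axis). Red points are the 382 genes called higher in collection 4, blue points the 334 called lower and grey points the rest. Circles mark 7 named genes, of which the HSP70 and HSP90 loci stand out for a large difference at a high level.

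Across the 11583 genes that averaged 5 CPM or more, the 3 pairs were only partly alike. The log2 differences of the CHI4 and CHI9 pairs correlated at r = 0.436 across genes, those of af and CHI4 at 0.331 and those of af and CHI9 at 0.341, as a description in which genes are not independent. The af pair spread most (SD 0.562, against 0.456 in CHI4 and 0.482 in CHI9). Of the 246 loci in 26 lists that were looked up by name, 193 were tested. Among these, 18 rose (9.33%) and 8 fell (4.15%), against 2.30% and 2.01% of all tested genes. The lists were chosen with earlier results of these data known, so nothing is read from these shares.

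Chaperone genes had the 2 largest fitted differences among the tested listed loci. In the heat shock list 4 of 17 tested loci rose and 0 fell, and the median log2 difference was 0.45, against -0.000965 for all tested genes. The count of 4 was 8 without the CHI9 pair and 2 without the CHI4 pair, 7 in DESeq2, without TMM scaling or without the low-count filter, 8 in limma-voom, and 1 with all 12 libraries in the fit. The HSP70 locus Solyc04g011440, a chaperone that refolds proteins, had 773, 538 and 301 CPM in the af, CHI4 and CHI9 libraries of collection 4, against 149, 107 and 79.9 CPM in those of collection 3. Every library of collection 4 lay above every library of collection 3, by 4.61-fold in the fit (log2 2.20, SE 0.15, edgeR adjusted p = 2.81e-09). The HSP90 locus Solyc06g036290 had 222, 108 and 26.6 CPM in collection 4, against 18.9, 17.3 and 8.67 CPM in collection 3. These libraries did not overlap either, and the rise of 2.65 (SE 0.41, edgeR adjusted p = 0.0462) was steepest in the af pair, at 3.55 against 2.63 in the CHI4 and 1.61 in the CHI9 pair. Its call was lost without the CHI4 pair (adjusted p = 0.473), with the lanes summed (0.0911), on lane 1 (0.0902) and with all 12 libraries (0.215).

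A further HSP90 locus, Solyc03g007890, had 32.5, 3.78 and 4.02 CPM in collection 4 and 6.71, 1.81 and 2.42 CPM in collection 3. It rose by 1.41 (SE 0.33, edgeR adjusted p = 0.0137) with overlapping collections, and the adjusted p was 0.371 without the af pair, 0.0589 on lane 1 and 0.232 with all 12 libraries. HSFB1, a heat shock factor that acts as a co-regulator of the response, had 41.1, 21.0 and 17.2 CPM in collection 4 and 25.4, 13.3 and 11.4 CPM in collection 3. It was higher in each pair but the collections overlapped, because af lay above the lines in both. Its rise of 0.65 (SE 0.19, edgeR adjusted p = 0.0448) was lost without the af (0.127), the CHI4 (0.170) or the CHI9 pair (0.135), with the lanes summed (0.0502), on lane 1 (0.0602) and with all 12 libraries (0.140).

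The other 13 heat shock loci did not pass edgeR's test with all 3 pairs. HSP101, a disaggregase that pulls proteins out of aggregates, had 136, 50.5 and 10.3 CPM in collection 4 and 16.3, 12.4 and 7.97 CPM in collection 3. It was far higher in af and CHI4 and little different in CHI9, and the fitted 1.90 (SE 0.70) had an edgeR adjusted p of 0.369. The HSP90 locus Solyc07g065840 had 2103, 788 and 702 CPM in collection 4 and 1596, 590 and 549 CPM in collection 3, a difference of 0.39 (SE 0.14, edgeR adjusted p = 0.125). In all, 15 of the 17 loci had a positive difference and 10 were higher in all 3 pairs. Of all 16639 tested genes, 8302 had a positive difference and 3161 were higher in all 3 pairs. The 3 tested class I small heat shock loci lay between 0.29 and 0.70, and the factors HSFA1a, HSFA2 and HSFA3 between -0.71 and 0.33. The whole list took 0.690%, 0.289% and 0.221% of gene counts in collection 4, against 0.380%, 0.161% and 0.165% in collection 3. This share was higher in each pair. It was not tested, since an exact test over 3 pairs cannot reach a p below 0.25. Reads of near-identical copies within the HSP70, HSP90 and small heat shock families may have been split or lost in counting.

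**Figure D2:**
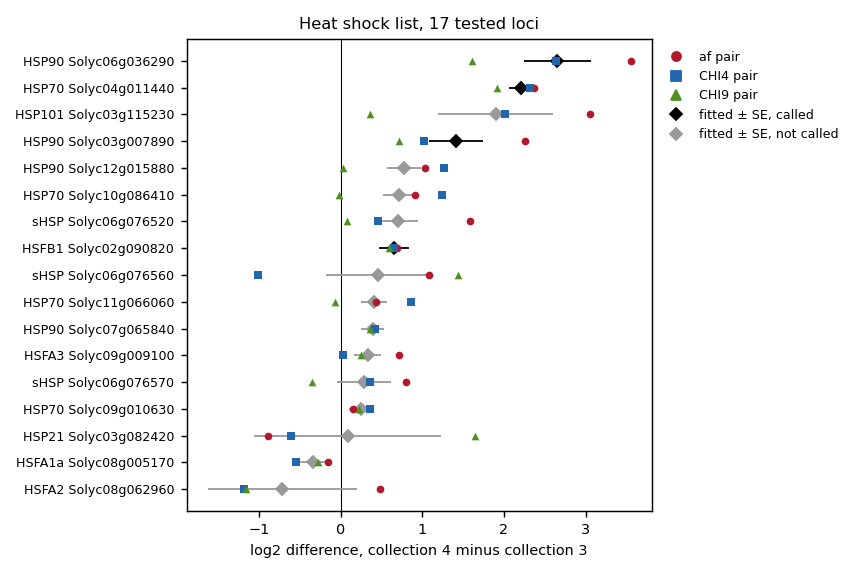
Log2 difference (collection 4 minus collection 3) of the 17 tested heat shock loci. Coloured symbols are the af, CHI4 and CHI9 pairs, and diamonds with bars the fitted value ± SE, black where called and grey where not; the af and CHI4 pairs lie to the right of the CHI9 pair at HSP90 Solyc06g036290, HSP70 Solyc04g011440 and HSP101.

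Of 14 clock loci, 3 rose and 1 fell. GI2, a GIGANTEA gene that acts in the evening part of the clock, had 183, 275 and 286 CPM in the af, CHI4 and CHI9 libraries of collection 4, against 74.6, 172 and 170 CPM in those of collection 3. The collections did not overlap, and the rise of 0.90 (SE 0.15, edgeR adjusted p = 0.000510) held in each of the 11 alternatives that kept the block. The pseudo-response regulator locus Solyc10g005030, from a family that in Arabidopsis represses morning genes of the loop, had 44.0, 189 and 174 CPM in collection 4 and 17.3, 122 and 118 CPM in collection 3. It rose by 0.82 (SE 0.15, edgeR adjusted p = 0.00254), with overlap between the collections and its lowest values in af. The call was lost with all 12 libraries (0.295). The related locus Solyc03g081240 had 13.5, 38.0 and 48.9 CPM in collection 4 and 6.40, 29.6 and 31.3 CPM in collection 3. It too was higher in each pair (0.67, SE 0.18, edgeR adjusted p = 0.0348), and lost its call without the af (0.0969), CHI4 (0.0518) or CHI9 pair (0.206) and with all 12 libraries (0.109).

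LNK2, a coactivator of the clock, fell by 0.52 (SE 0.15, edgeR adjusted p = 0.0447), with 28.0, 50.3 and 47.6 CPM in collection 4 and 34.5, 76.8 and 73.0 CPM in collection 3. It was lower in each pair, least so in af, and its call was lost without the CHI4 (0.278) or CHI9 pair (0.335), without TMM scaling (0.135) and with all 12 libraries (0.180). The morning factor LHY had 144, 124 and 104 CPM in collection 4 and 145, 106 and 70.6 CPM in collection 3 and did not pass the test (0.26, SE 0.14, edgeR adjusted p = 0.364). The second GIGANTEA gene, GI1, did not share the rise of GI2, with 38.7, 67.2 and 72.9 CPM in collection 4 and 32.8, 92.3 and 96.5 CPM in collection 3 (-0.22, SE 0.15, edgeR adjusted p = 0.506). The difference between GI1 and GI2 was not tested. Among 9 tested photoreceptor and light signalling loci, 0 were called, and the median was -0.01.

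Of 7 tested loci of the entry steps of phenylpropanoid synthesis 3 rose and 0 fell. The PAL locus Solyc09g007910 had 773, 817 and 534 CPM in collection 4, against 570, 378 and 214 CPM in collection 3. It was higher in each pair, most in CHI9 (1.32) and least in af (0.44), and overlapped only because CHI9 of collection 4 lay below af of collection 3. The rise of 0.96 (SE 0.16, edgeR adjusted p = 0.00107) held in all 11 alternatives with the block. The PAL locus Solyc05g056170 had 169, 139 and 103 CPM in collection 4 and 120, 80.5 and 39.9 CPM in collection 3 and rose by 0.87 (SE 0.16, edgeR adjusted p = 0.00174), a call lost with all 12 libraries (0.261). The same order of pairs was seen for Solyc03g117870, a 4-coumarate CoA ligase that activates the acids PAL leads to. It had 15.1, 15.1 and 8.32 CPM in collection 4 and 11.1, 6.91 and 3.01 CPM in collection 3 (1.00, SE 0.27, edgeR adjusted p = 0.0340), and lost its call without the CHI4 (0.226) or CHI9 pair (0.267) and with all 12 libraries (0.559). The PAL loci next to the first, Solyc09g007900 and Solyc09g007920, had differences of -0.04 and 0.21 and did not pass the test, and reads of these close copies may have been split between them.

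MYB12, an activator of flavonol genes, rose by 0.58 (SE 0.14, edgeR adjusted p = 0.0133), with 176, 101 and 82.1 CPM in collection 4 and 126, 60.2 and 57.5 CPM in collection 3. All pairs were higher by a like amount, and the call was lost without the CHI4 pair (0.161), on lane 1 (0.0670) and with all 12 libraries (0.105). Of the 12 tested flavonoid enzymes and helpers, 0 rose and 1 fell. That was CHIL, a chalcone isomerase-like protein without the enzyme's own activity that helps chalcone synthase, with 1071, 1919 and 1852 CPM in collection 4 and 2049, 2548 and 2710 CPM in collection 3. All libraries of collection 4 were the lower ones, and the fall was by 0.63 on the log2 scale (SE 0.15, edgeR adjusted p = 0.0143), lost without the CHI9 pair (0.125) and with all 12 libraries (0.0603). Flavonol synthase, FLS, had 2084, 2600 and 2407 CPM in collection 4 and 3424, 3316 and 3152 CPM in collection 3. These did not overlap either, but the difference of -0.48 (SE 0.15) had an edgeR adjusted p of 0.0617. The chalcone synthases CHS1 and CHS2 had differences of -0.07 and 0.09.

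**Figure D3:**
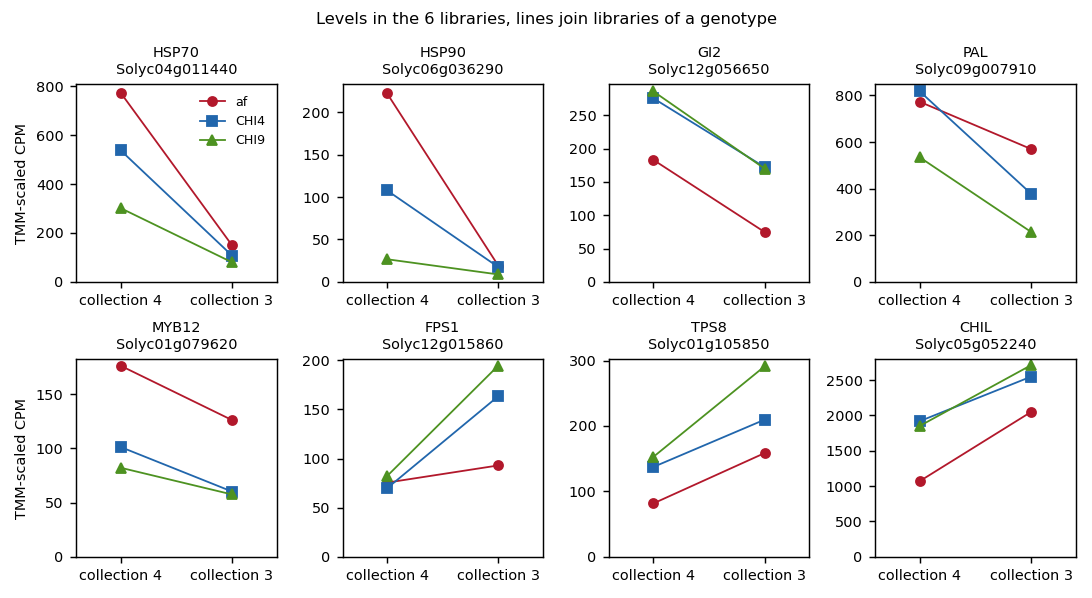
TMM-scaled CPM of 8 genes in the 3 libraries of collection 4 (left in each panel) and the 3 of collection 3 (right), with a line joining the libraries of a genotype. The HSP70, HSP90, GI2, PAL and MYB12 lines run down from collection 4 to collection 3 in all 3 genotypes, and the FPS1, TPS8 and CHIL lines run up.

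Of 12 tested carotenoid loci 3 rose, 0 fell and 11 had a positive difference, with a median of 0.27, and 10 were higher in all pairs. Among all 16639 tested genes, 8302 had a positive difference and 3161 were higher in all pairs. BCH1, a β-carotene hydroxylase on the way to xanthophylls, had 22.6, 25.6 and 14.0 CPM in collection 4 and 16.9, 7.05 and 5.96 CPM in collection 3. The CHI4 pair differed most and the af pair least, for a rise of 1.17 (SE 0.25, edgeR adjusted p = 0.00904) that was lost without the CHI4 (0.175) or CHI9 pair (0.0588) and with all 12 libraries (0.389). VDE, the violaxanthin de-epoxidase of photoprotection, had 67.7, 58.4 and 58.2 CPM in collection 4 and 37.9, 44.9 and 43.6 CPM in collection 3. All of collection 4 lay above all of collection 3 (0.54, SE 0.15, edgeR adjusted p = 0.0366). CCD1B, a dioxygenase that cleaves carotenoids into volatiles, had 969, 1688 and 1576 CPM in collection 4 and 635, 1290 and 1138 CPM in collection 3 (0.49, SE 0.14, edgeR adjusted p = 0.0467). VDE and CCD1B lost their calls whichever pair was left out, with adjusted p from 0.0708 to 0.181 for VDE and from 0.0740 to 0.241 for CCD1B, and with the lanes summed (0.0770 and 0.141), on lane 1 (0.118 and 0.220) and with all 12 libraries (0.121 and 0.150). The carotenoid count of 3 was 1 without the af pair, with the lanes summed or on lane 1, and 0 without the CHI4 or the CHI9 pair or with all 12 libraries.

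The 8 loci that handle reactive oxygen all had positive differences, as did 8302 of all 16639 tested genes. The median of these 8 loci was 0.26, but 1 was called. This was the ascorbate peroxidase APX2, with 140, 129 and 105 CPM in collection 4 and 94.8, 86.7 and 81.9 CPM in collection 3. Here too the collections were separate, and the rise of 0.50 (SE 0.13, edgeR adjusted p = 0.0334) was lost without the af (0.0657), CHI4 (0.213) or CHI9 pair (0.0742) and with all 12 libraries (0.157). Of the 10 tested light-harvesting and Calvin cycle loci and the 3 Rubisco small subunits, 0 were called. The green leaf sums given above were higher in collection 4 in every pair, though not every locus in them was. The called carotenoid loci were higher in every pair as well, but so were 380 of the 382 genes called higher, so nothing is read from this.

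Of 6 tested loci of the mevalonate branch 2 fell and 0 rose. FPS1, the farnesyl diphosphate synthase that supplies sesquiterpenes and sterols, had 75.5, 69.7 and 82.2 CPM in collection 4, against 93.0, 164 and 195 CPM in collection 3. Every library of collection 4 lay below every library of collection 3, though the af pair was set apart far less (-0.30) than the CHI4 (-1.23) and CHI9 pairs (-1.24). The fall was by 0.93 on the log2 scale (SE 0.17, edgeR adjusted p = 0.00326), with an adjusted p of 0.0603 without the CHI9 pair. HMGR1, an isoform of the reductase that sets the pace of the pathway, had 35.5, 52.0 and 41.3 CPM in collection 4 and 52.8, 67.4 and 75.4 CPM in collection 3. It fell by 0.60 (SE 0.15, edgeR adjusted p = 0.0186), lost without the CHI9 pair (0.293), without TMM scaling (0.0572) and with all 12 libraries (0.0701). Squalene synthase, SQS, which leads to sterols, had 277, 285 and 308 CPM in collection 4 and 286, 298 and 305 CPM in collection 3 (-0.03, SE 0.13).

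Of 10 tested terpene synthases 1 rose and 1 fell. TPS8 had 81.6, 137 and 153 CPM in collection 4 and 159, 210 and 291 CPM in collection 3. The collections did not overlap, and the fall by 0.83 on the log2 scale (SE 0.14, edgeR adjusted p = 0.000640) held in all 11 alternatives with the block. TPS21, of the chromosome 8 cluster, had 134, 489 and 628 CPM in collection 4 and 90.0, 404 and 375 CPM in collection 3, and its rise of 0.53 (SE 0.14, edgeR adjusted p = 0.0304) was lost without the CHI9 pair (0.288) and with all 12 libraries (0.381). The main products of these glands come from other enzymes. TPS19/20, which makes monoterpenes from neryl diphosphate, had 456, 3360 and 2858 CPM in collection 4 and 696, 3550 and 4302 CPM in collection 3 (-0.43, SE 0.15, edgeR adjusted p = 0.123). The sesquiterpene synthase TPS12 had 2587, 9677 and 10281 CPM in collection 4 and 2763, 8538 and 10139 CPM in collection 3 (0.04, SE 0.15). Of the 8 plastid MEP pathway loci and the 4 tested prenyl diphosphate loci, 0 were called, with medians of -0.05 and 0.09.

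Single genes were called in several further lists. SSR2, a sterol side chain reductase on the route to glycoalkaloids, had 11.1, 64.3 and 42.5 CPM in collection 4 and 28.5, 91.2 and 61.7 CPM in collection 3. It was lower in each pair, most in af, and was the 1 of 7 tested glycoalkaloid loci to be called (-0.76, SE 0.17, edgeR adjusted p = 0.00931), a call lost with the lanes summed (0.0522), on lane 1 (0.0818) and with all 12 libraries (0.225). WRKY33 (Solyc06g066370), a transcription factor of defence, had 29.5, 17.8 and 11.9 CPM in collection 4 and 10.9, 7.49 and 6.67 CPM in collection 3. The collections did not overlap, and its rise of 1.18 (SE 0.23, edgeR adjusted p = 0.00287), the 1 call among 11 tested pathogen response loci, held in all 11 alternatives with the block.

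In nitrogen metabolism 1 of 7 loci rose and 1 fell. The cytosolic glutamine synthetase locus Solyc11g011380, which builds ammonium into glutamine, had 200, 500 and 523 CPM in collection 4 and 138, 322 and 309 CPM in collection 3. It was higher by a like amount in each pair (0.65, SE 0.14, edgeR adjusted p = 0.00608), with an adjusted p of 0.0745 without the CHI9 pair. GDH1, a glutamate dehydrogenase that can release ammonium, had 6.11, 19.5 and 16.0 CPM in collection 4 and 11.7, 27.8 and 27.7 CPM in collection 3. Its fall by 0.73 (SE 0.20, edgeR adjusted p = 0.0391) was lost without the af (0.0625), CHI4 (0.135) or CHI9 pair (0.302), without TMM scaling (0.0854), with the lanes summed (0.0896), on lane 1 (0.234) and with all 12 libraries (0.215).

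In the remaining lists 0 loci were called. These were 9 tested jasmonate, 2 wound defence, 5 water deficit and abscisic acid, 7 sugar, 3 acylsugar, 3 trichome regulator, 6 cutin and wax and 3 green leaf volatile loci. MYC1, a regulator of gland development and terpenes, had 679, 661 and 716 CPM in collection 4 and 564, 569 and 615 CPM in collection 3. These did not overlap, and the difference of 0.23 (SE 0.14) had an edgeR adjusted p of 0.409. TomLoxC, the lipoxygenase behind leaf aldehydes, had 5156, 19173 and 20849 CPM in collection 4 and 5208, 20249 and 20301 CPM in collection 3, a difference of -0.02 (SE 0.15). HPL and ADH2, the other green leaf volatile loci, were lower in each pair but did not pass the test. Their differences were -0.37 (SE 0.15, edgeR adjusted p = 0.169) for HPL and -1.02 (SE 0.33, edgeR adjusted p = 0.160) for ADH2.

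**Figure D4:**
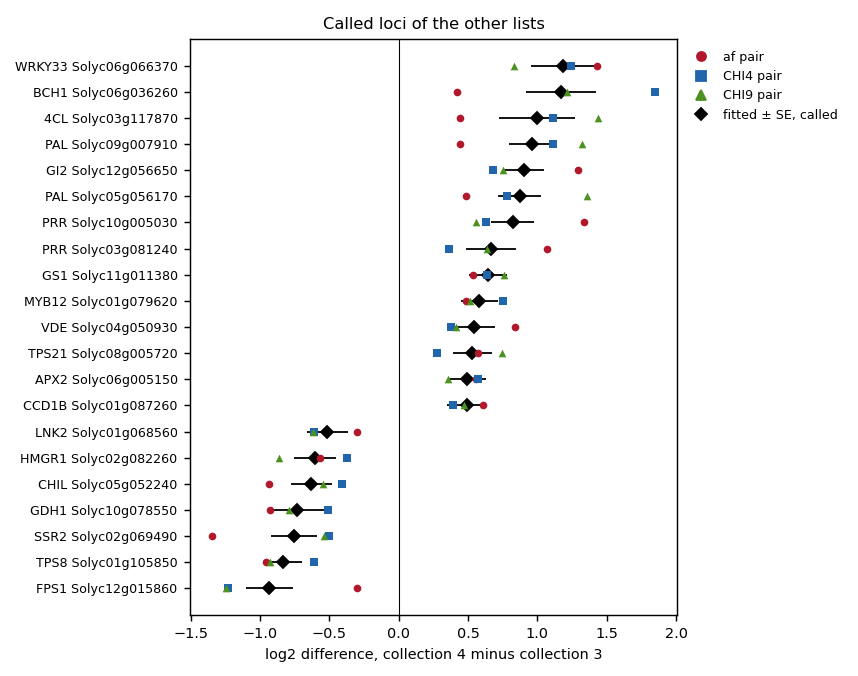
Log2 difference (collection 4 minus collection 3) of 21 called loci outside the heat shock list, 14 higher and 7 lower. Coloured symbols are the af, CHI4 and CHI9 pairs and black diamonds with bars the fitted value ± SE. All 3 pairs lie on the called side of 0 at each locus, with af apart from the lines at PAL Solyc09g007910, FPS1 and SSR2. The interaction test of af against the lines, given below, called none of these (edgeR adjusted p = 0.153, 0.0714 and 0.263).

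Among loci with no name here, 4 were taken for the largest non-overlapping differences, averaging 5 CPM or more. Solyc08g078700, on chromosome 8 by its number, had 167, 106 and 39.4 CPM in collection 4, against 23.1, 19.1 and 11.1 CPM in collection 3. It rose 5.29-fold (log2 2.40, SE 0.18, edgeR adjusted p = 1.04e-07). Solyc06g011370 had 18.7, 9.45 and 12.2 CPM in collection 4 and 6.22, 2.86 and 0.885 CPM in collection 3 (2.22, SE 0.37, edgeR adjusted p = 0.00142). The largest falls were at Solyc10g075110, with 2.76, 11.1 and 7.82 CPM in collection 4 and 23.7, 36.1 and 27.4 CPM in collection 3 (-2.09, SE 0.25, edgeR adjusted p = 2.53e-05), and Solyc01g109090, with 10.8, 15.5 and 24.6 CPM in collection 4 and 32.1, 81.5 and 94.6 CPM in collection 3 (-2.00, SE 0.17, edgeR adjusted p = 1.61e-07). Their calls held in all 11 alternatives with the block, as did those of 5 of the 26 called listed loci.

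Whether af differed from the lines in what differed between collections was asked with an interaction term. In edgeR's quasi-likelihood test the log2 difference, sign included, was higher in af than in the lines for 50 genes (0.300%) and lower for 86 (0.517%). Of these, 22 were higher in af and lower in both lines and 41 the other way round, and 11 of all 136 were also called between the collections. TPS33, a terpene synthase, had 0.719, 55.2 and 87.6 CPM in the af, CHI4 and CHI9 libraries of collection 4, against 5.28, 42.2 and 52.9 CPM in those of collection 3. It was lower in af and higher in both lines. WRKY40, a transcription factor of defence, had 43.6, 1.45 and 2.52 CPM in collection 4 and 1.88, 0.617 and 3.48 CPM in collection 3. With all 12 libraries scaled together its af levels were 57.2, 28.7, 1.96 and 45.6 CPM in collections 1 to 4, so that af of collection 3 was the low one. The PAL locus Solyc10g086180 had 145, 576 and 448 CPM in collection 4 and 229, 446 and 260 CPM in collection 3, again lower in af and higher in both lines. The test has 1 residual degree of freedom, and its spread is that between the CHI4 and CHI9 pairs, moderated across genes, so the single af pair is assumed to vary like those of the lines. The af library of collection 4 is also the shallowest, and the count of 136 was 2 without TMM scaling and 21 in DESeq2.

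Collections 1 and 2, whose library names carry March dates, were set beside these levels with all 12 libraries scaled together, as a description with no test. For HSP70 Solyc04g011440 the libraries of collection 3 were the lowest of the 4 collections in each genotype. In af the levels were 534, 848, 156 and 808 CPM in collections 1 to 4, in CHI4 152, 348, 111 and 554 CPM, and in CHI9 201, 218, 82.9 and 311 CPM. GI2 had its lowest level in collection 3 in each genotype as well, at 77.6, 177 and 176 CPM, and the other 3 collections ranged from 140 to 295 CPM. FPS1 was highest in collection 3 in each genotype, at 96.7, 169 and 202 CPM, against 61.4 to 101 CPM in the other 9 libraries. CHIL was highest in collection 3 too, at 2131, 2627 and 2813 CPM, against 659 to 1977 CPM in the others. PAL Solyc09g007910 did not set collection 3 apart in this way, since CHI4 had 352 CPM in collection 1 and 390 CPM in collection 3. TPS21 instead was highest in collection 4 in each genotype, at 140, 504 and 649 CPM.

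Of the 382 genes called higher, the mean of collections 1 and 2 lay between the means of collections 3 and 4 for 304, below both for 39 and above both for 39. Of the 334 called lower it lay between them for 235, below both for 85 and above both for 14. Genes called for a difference have a wide interval by choice, so nothing is read from the share that fell between. The mean of collections 1 and 2 was nearer to collection 4 for 59.7% of the higher and 63.8% of the lower genes, against 52.8% of all tested genes. When all 12 libraries entered the fit, 99 genes were called higher and 96 lower, and 12 of the 30 called genes chosen by the naming rule kept their call.

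**Figure D5:**
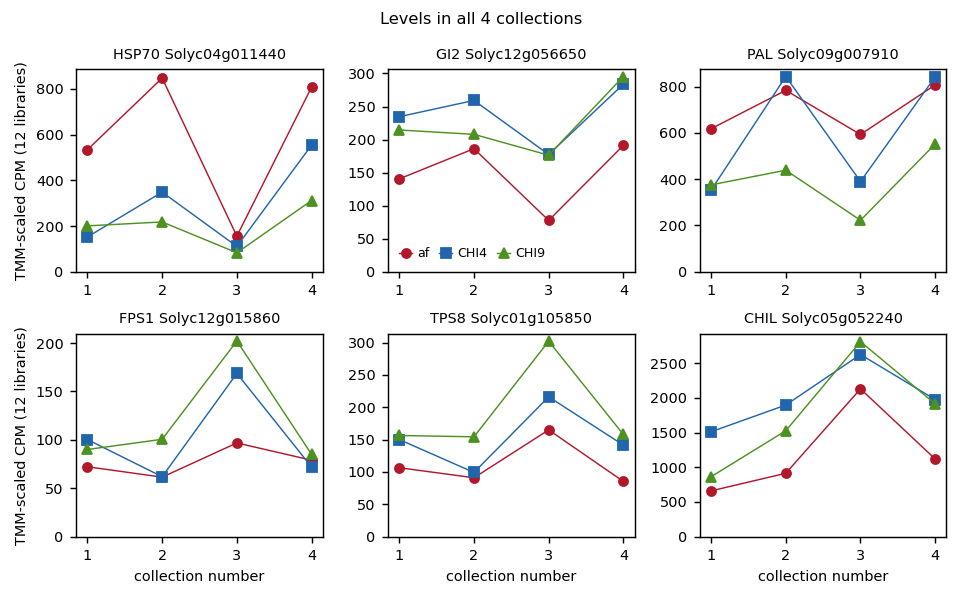
TMM-scaled CPM of 6 genes in collections 1 to 4 for af, CHI4 and CHI9, with all 12 libraries scaled together. Collection 3 is the lowest point of each genotype for HSP70 and GI2 and the highest for FPS1, TPS8 and CHIL, and lines join collections for reading only.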

How the data were processed

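Counts per gene model in 24 lane files were deposited by the authors, not normalized, and the submitters' processing notes name Trimmomatic, TopHat2, SAMtools and HTSeq. Not given in the sources used here are versions, build, annotation, strand setting and whether mates were counted singly. Of 34725 models, 22571 had a count in the 6 libraries, and the HTSeq summary entries, such as no feature (8.48% to 11.6%) and ambiguous (3.96% to 6.08%), were left out. Genes were filtered by filterByExpr, scaled by TMM and tested in R 4.3.3 with edgeR 4.0.16, robust quasi-likelihood, genotype plus collection, with 2 residual degrees of freedom. Printed CPM are TMM-scaled. Pairs share a genotype by the labels, and same-genotype libraries deviated together (r 0.584 to 0.769). Alternatives included DESeq2 1.42.0 and limma-voom 3.58.1. On simulated data of 16201 genes the test recovered 4%, 32%, 100% and 100% of log2 changes of 0.5, 1, 2 and 3, with 0 false calls. The simulated spread followed the trend across genes and was estimated with genotype alone, so real differences between collections counted as spread. Whether these rates hold for the real libraries was not tested. Members and lists were chosen with earlier results of these data known. Text names called list members (1 is not reported here), the 2 most abundant of a list, CHI1 and 4 unnamed loci. Other genes named for their values, such as HSP101, were chosen after these were seen.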

Additional observations from a re-analysis of the deposited data

Results flagged for a closer look

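By an interaction term in edgeR, the signed collection difference was higher in af than in the lines for 50 genes and lower for 86. A lower value can be a larger fall in af, as at TPS33. Among listed loci 6 were called, each resting on 1 af library per collection and on a spread taken from the 2 lines alone, with 1 residual degree of freedom. The values are the af difference minus that of the lines, on the log2 scale. TPS33 stood at -3.42 (SE 0.53, edgeR adjusted p = 5.47e-06, but 0.563 in limma-voom and 0.0505 without TMM scaling). WRKY40 stood at 4.32 (SE 0.65, edgeR adjusted p = 5.02e-06) and passed in every setting that gave it an adjusted p. PAL Solyc10g086180 stood at -1.23 (SE 0.27, edgeR adjusted p = 0.00423), lost without TMM scaling (0.232). TPS17, a terpene synthase with 23.1, 774 and 368 CPM in collection 4 and 50.2, 550 and 364 CPM in collection 3, stood at -1.37 (SE 0.28, edgeR adjusted p = 0.00201), lost without TMM scaling (0.193) and in limma-voom (0.0640). ASAT3, an acylsugar acyltransferase of other trichome types, had 7.79, 60.2 and 40.9 CPM in collection 4 and 20.4, 57.3 and 38.5 CPM in collection 3. It stood at -1.47 (SE 0.35, edgeR adjusted p = 0.0120), lost in DESeq2 (0.163), in limma-voom (0.414), on lane 1 (0.0911) and without TMM scaling (0.223). The HSP90 locus Solyc06g036290 stood at 1.39 (SE 0.31, edgeR adjusted p = 0.0110), lost in DESeq2 (0.198), in limma-voom (0.112) and without TMM scaling (0.184). Leaving out a pair was not possible in this test, since it removes af or all residual degrees of freedom.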

How the results depend on the processing

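The 382 higher and 334 lower calls kept their sign in every alternative that tested them. All 3 pairs already moved the called way for 380 and 332 of them, so few signs could have changed. Counts were within 1.5 times of these in DESeq2, without the low-count filter, on lane 1, with the lanes summed and with halved counts. In limma-voom 504 genes were lower, and without TMM scaling 198. Without the replicate block edgeR called 0 higher and 0 lower, DESeq2 24 and 19 and limma-voom 0 and 0, the tools added after seeing the data. With all 12 libraries 99 were higher and 96 lower. Leaving out a pair gave 209 to 441 higher and 160 to 367 lower: 441 and 367 without af, 211 and 206 without CHI4, and 209 and 160 without CHI9. The interaction count of 136 was 262 with the lanes summed, 21 in DESeq2, and, added later, 50 in limma-voom and 2 without TMM scaling. Of the 30 calls chosen by the naming rule, 23 held without the af pair, 19 without CHI4 and 15 without CHI9, and the cause was not tested. Halved counts gave 413 higher and 371 lower. Depth limits low levels: 3 counts stand for 0.464 CPM in the shallowest library.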

Other observations

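Calls were spread over the chromosomes, with 1.36% to 2.99% of the tested genes of chromosomes 1 to 12 higher in collection 4 and 1.11% to 2.75% lower. Loci numbered to chromosome 0, which holds sequence with no assigned place, had 2 higher and 11 lower calls among 143 tested genes (7.69% lower, against 2.01% of all tested genes). This count was noticed after it was computed and was not tested. Of the called genes with a tested gene next in locus order, 6.28% of the higher and 8.13% of the lower had a neighbour called the same way. Over all tested genes, 2.30% were called higher and 2.01% lower. The excess among neighbours was not tested.

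Nitrate reductase, NIA, which makes nitrite from nitrate, had 6.47, 12.4 and 16.6 CPM in collection 4 and 12.9, 17.9 and 23.0 CPM in collection 3 and did not pass the test (-0.65, SE 0.22, edgeR adjusted p = 0.107). The sucrose transporter locus SUT4 had 7.55, 2.42 and 0.960 CPM in collection 4 and 1.97, 0.264 and 0.590 CPM in collection 3, higher in each pair but with overlap (1.92, SE 0.64, edgeR adjusted p = 0.0985).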
